A study of Arabidopsis thaliana with 12 samples.

Results

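The cytosolic translation elongation factors described here comprise 10 of the 27655 genes with a value in the deposited tables. They were taken by gene identifier, not by any measured value: 4 eEF1A genes (AT5G60390, AT1G07940, AT1G07920 and AT1G07930), the eEF2 gene LOS1 (AT1G56070), and 5 genes for subunits of eEF1B. The eEF1B genes are AT5G19510 and AT5G12110 for the alpha subunit, AT1G30230 (eEF-1Bb1) and AT2G18110 for the beta subunit, and AT1G09640 for the gamma subunit. RefSeq annotates AT5G12110 as elongation factor 1-beta 1, a name that differs from the alpha label used here. All 10 are nuclear genes with values in both assays. Their footprints and their RNA were measured in wild-type Arabidopsis Col-0 seedlings, 7 days old, which had been grown in shaken liquid medium with sucrose at 22 °C under 16 hours of light and 8 hours of dark. At Zeitgeber time 3 the medium received DMSO at 0.1% of its volume as a mock treatment, and seedlings were harvested 20 or 60 minutes later. Ribo-seq reads the pieces of mRNA that a ribosome shields from RNase digestion, called footprints, and RNA-seq was made after removal of rRNA. Each assay had 6 libraries, but for every gene the authors of the data gave a single value per assay that covers all of them. The comparison is thus between footprints and RNA of the same kind of seedling, with no mutant or second treatment. The spread between replicates is unknown, no test was made, and all intervals (95%) cover counting error only.

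Translation elongation adds amino acids to a growing protein in a cycle of GTP-dependent steps. eEF1A binds GTP and brings each aminoacyl-tRNA to the ribosome, and eEF1B, a complex of alpha, beta and gamma subunits in plants, exchanges the spent GDP on eEF1A for GTP. eEF2, another GTPase, then moves the ribosome along the mRNA by one codon. eEF1A is among the most abundant proteins of eukaryotic cells and is also known to bind actin. Arabidopsis LOS1 is known from a mutant with impaired protein synthesis in the cold.

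The eEF1A genes show how far reads can be assigned to single copies. The 4 coding sequences of 1350 nucleotides encode the same protein of 449 amino acids, with 0 differences in every pair. They vary at 90 positions (6.67%), of which 86 are at the last position of a codon. At 76 of the 90 positions AT5G60390 alone stands apart from the other copies, against 9 for AT1G07930, 3 for AT1G07920 and 1 for AT1G07940. AT1G07940 and AT1G07920 differ at only 6 nucleotides (99.6% identity).

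The longest run that all 4 eEF1A genes have in common is 89 bases, from coding position 709, and is shown because no footprint of a usual length that lies inside it can be placed on a single copy (AT5G60390, chr5:24290034-24290122, plus strand, TAIR10.1).
All 4 eEF1A genes: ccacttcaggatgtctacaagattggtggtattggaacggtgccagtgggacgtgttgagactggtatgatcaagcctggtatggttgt

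Windows of 28 nucleotides, the lower end of the footprint sizes cut from the gels, were then searched in all annotated coding sequences on both strands. In AT5G60390 285 of 1323 windows (21.5%) also occurred in another gene. The share was 93.1% in AT1G07940, 94.3% in AT1G07920 and 79.0% in AT1G07930. With windows of 100 nucleotides, closer to an RNA-seq fragment, it was 0% in AT5G60390, 82.3% in AT1G07940, 82.1% in AT1G07920 and 35.4% in AT1G07930. AT5G60390 can therefore be told from the other copies over most of its length, while AT1G07940 and AT1G07920 can hardly be told from each other. The 3 genes that resemble each other lie close together on chromosome 1, AT1G07920 from 2454771 to 2457321, AT1G07930 from 2458184 to 2460817 and AT1G07940, on the opposite strand, from 2462949 to 2465545. AT5G60390 lies on chromosome 5 from 24288596 to 24291020. The 4 genes have 2 coding exons each. In what follows, sums over these 3 tandem genes are given beside the values that RSEM, the program with which the authors of the data divided reads, assigned to each copy. The summing of these 3 genes was chosen after the values had been seen.

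**Figure D1:**
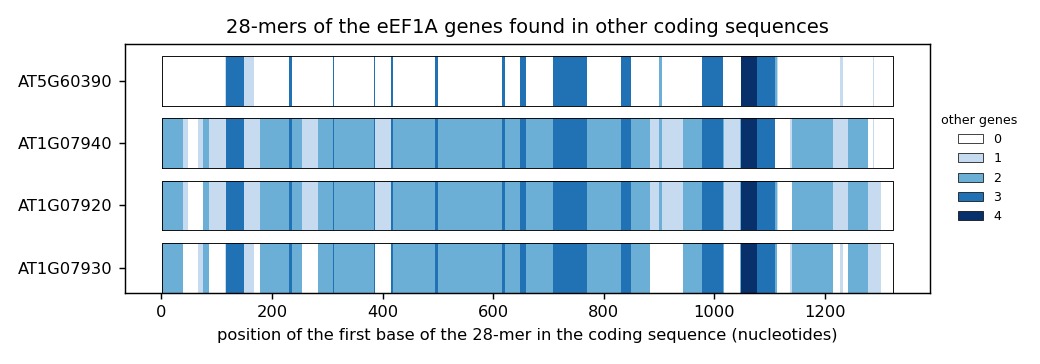
Each row is the coding sequence of an eEF1A gene, the horizontal axis gives the coding position at which a 28-mer starts, and the shade gives the number of other genes whose coding sequence holds that 28-mer. White stretches, unique to a gene, fill 78.5% of AT5G60390 but 6.88% of AT1G07940, 5.67% of AT1G07920 and 21.0% of AT1G07930.

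The other members were far easier to assign. Windows of 28 nucleotides shared with another gene made up 1.52% of LOS1, 1.08% of AT5G19510, 1.06% of AT5G12110, 2.96% of AT1G09640, and 12.9% each of AT1G30230 and AT2G18110. With windows of 100 nucleotides the share was 0% in all 6. The beta genes encode proteins of 231 amino acids that are 93.5% identical, and the alpha genes proteins of 224 and 228 amino acids that are 82.6% identical. Between an alpha and a beta protein identity was 59.0% to 61.1%. The longest stretch that the beta genes share, 56 bases, is shown as the longest part of the shared sequence that bears on the comparison of their footprints below (AT1G30230, chr1:10640330-10640385, and AT2G18110, chr2:7873521-7873576, both plus strand, TAIR10.1).
AT1G30230 and AT2G18110: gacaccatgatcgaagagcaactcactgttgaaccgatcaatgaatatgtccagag

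The elongation factors were among the most abundant transcripts of these seedlings in both assays. Together the 10 genes took 1.41% of the 299584069 footprints and 1.02% of the 51390094 RNA-seq counts. Of the counts of nuclear genes alone they took nearly equal shares, 1.46% in Ribo-seq and 1.43% in RNA-seq. Levels are given as TPM, counts divided by an effective coding length and scaled to the same sum in each table, and so can be compared between genes. AT5G60390 had 2718 TPM in Ribo-seq and 2518 TPM in RNA-seq, which places it at rank 14 and at rank 9 of the 27445 nuclear genes. LOS1 had 1376 TPM in Ribo-seq and 797 TPM in RNA-seq, at ranks 63 and 103. Among the tandem genes AT1G07940 had 1096 TPM in Ribo-seq and 725 TPM in RNA-seq. AT1G07930 had 960 TPM in Ribo-seq and 590 TPM in RNA-seq, and AT1G07920 had 919 TPM in Ribo-seq and 689 TPM in RNA-seq. The order of AT1G07930 and AT1G07920 thus differed between the assays, and it rests on the division of reads between near-identical sequences.

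The eEF1B genes lay lower and spread more widely. AT5G19510 had 696 TPM in Ribo-seq and 590 TPM in RNA-seq, and AT5G12110 had 110 TPM in Ribo-seq and 77.3 TPM in RNA-seq. For the beta subunit, AT1G30230 had 558 TPM in Ribo-seq and 328 TPM in RNA-seq, and AT2G18110 had 194 TPM in Ribo-seq and 66.4 TPM in RNA-seq. The gamma gene AT1G09640 had 408 TPM in Ribo-seq and 209 TPM in RNA-seq. AT5G12110 was the lowest member in Ribo-seq, at rank 1612 of the nuclear genes, and AT2G18110 the lowest in RNA-seq, at rank 1793. These ranks carry no error from replicates. The seedling label fits both tables in that leaf transcripts were abundant, RBCS1A with 9676.3 TPM in Ribo-seq and 7470 TPM in RNA-seq, although root is named in the Ribo-seq descriptions. PYK10, a gene of roots and hypocotyls, had 4634 TPM in Ribo-seq and 3121 TPM in RNA-seq.

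**Figure D2:**
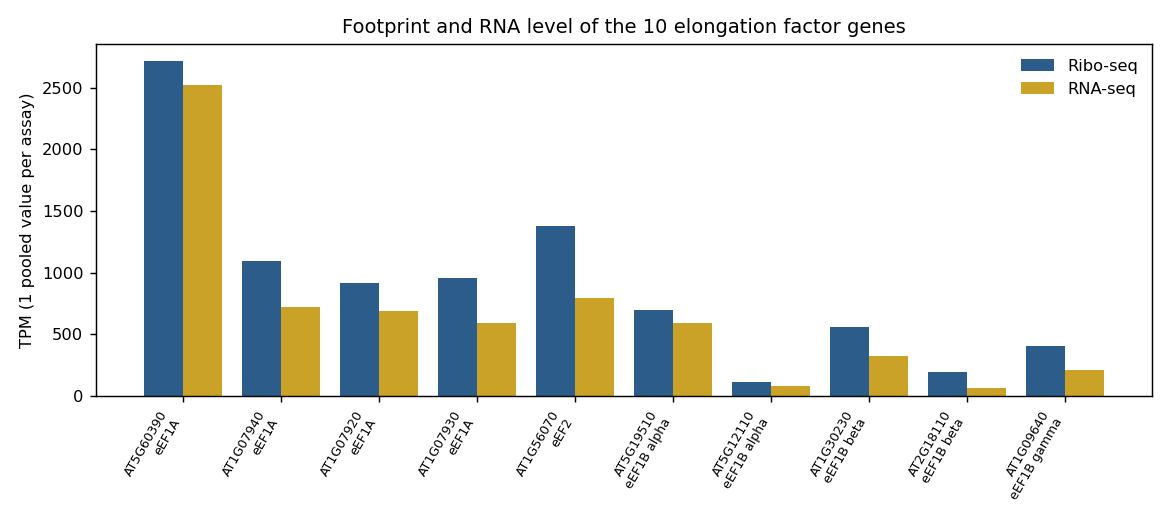
Bars give the TPM of the 10 members in Ribo-seq (left of each pair) and RNA-seq (right), with 1 pooled value per bar and so no error bar. AT5G60390 reached 2718 TPM in Ribo-seq and 2518 TPM in RNA-seq, and the Ribo-seq bar was the taller in all 10 pairs.

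Footprints were next set against RNA by dividing the Ribo-seq TPM by the RNA-seq TPM, on a log2 scale and with 0.1 added to both, for genes with an RNA-seq TPM over 0.1. The ratio is relative within each table, and plastid genes took 3.16% of the counts in Ribo-seq and 27.8% in RNA-seq. Rescaling both tables over nuclear genes alone moved the median of all 21422 nuclear genes with a ratio to -0.32, against 0.12 as deposited, a shift that applies to all members alike. Members are therefore described relative to that median. All 10 members had a ratio over 0 as deposited, as had 56.1% of the nuclear genes, but AT5G60390, AT1G07920 and AT5G19510 lay under 0 with the scaling over nuclear genes, and AT5G60390 also with whole coding lengths. The median of the members was 0.65, and 9 of the 10 lay above the nuclear median, also with whole coding lengths, with counts scaled to the library total (CPM) and with the scaling over nuclear genes, whereas all 10 did with a pseudocount of 1. Only AT2G18110 exceeded a ratio of 1, a fold of 2, as 8.44% of the nuclear genes did, and 0 members lay under -1, as 10.1% did. A share of 1 in 10 is near that background. Among the 2362 nuclear genes with an RNA-seq TPM over 50, a level that all members exceeded, the median ratio was 0.53, closer to that of the members. In this group 13.8% exceeded a ratio of 1. The group was formed after the values had been seen. Against its 0.53, the summed genes of eEF1A (0.33) and of eEF1B alpha (0.27) lay lower. LOS1 (0.79), the summed eEF1B beta genes (0.93) and the gamma gene (0.96) lay higher.

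**Figure D3:**
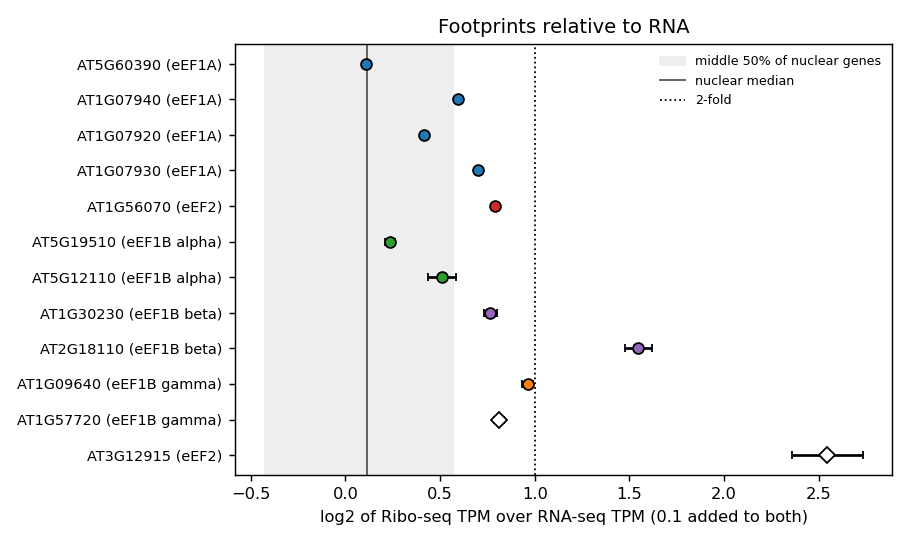
Points give the log2 of footprint TPM divided by RNA TPM for the 10 members (filled) and of the relatives AT1G57720 and AT3G12915 (open), bars the 95% counting intervals, the line the nuclear median of 0.12 and the grey band the middle 50% of nuclear genes. Members spread from 0.11 for AT5G60390 to 1.55 for AT2G18110, and AT3G12915 lay at 2.54.

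Within eEF1A, as RSEM divided the reads, the most abundant copy carried the fewest footprints per RNA. AT5G60390 had 1217566 footprints and 194706 RNA-seq counts, a ratio of 0.11 (95% interval 0.10 to 0.12). The 3 tandem genes together had 1332461 footprints and 154946 RNA-seq counts, and their ratio was 0.57 (0.56 to 0.58). The copy on chromosome 5 therefore lay 0.46 below the tandem genes on the log2 scale. Relative to the nuclear median it lay at -0.01, a sign that turned with a pseudocount of 1 (0.02), and between -0.12 and 0.02 over all settings, while the tandem sum lay between 0.33 and 0.48. AT5G60390 took 47.7% of the eEF1A footprints and 55.7% of the eEF1A RNA-seq counts. The exact binomial interval was 47.7 to 47.8% for the footprints and 55.5 to 55.9% for the RNA. These intervals do not overlap, but they leave out the uncertainty of dividing shared reads. The share differed by -7.94 points, and the part of that division in it was not tested. Of the 28-nucleotide windows of AT5G60390, 21.5% also occur in another gene, so the order of the copies may depend on it. Sequence is also shared with a gene outside the members. AT1G35550, annotated as a protein with a C-terminal EF-Tu domain and with a coding sequence of only 315 nucleotides, holds 30 windows of 28 nucleotides that also occur in each eEF1A gene, and was chosen for this after its values had been seen. It was assigned 10741 footprints (110 TPM) in Ribo-seq but 0 counts in RNA-seq, and a count of 0 does not show that no RNA was there. Its footprints equal 0.421% of those of the 4 eEF1A genes, and their origin was not tested. The sum over the 4 genes does not depend on how reads were divided among them, and it had 2550027 footprints and 349652 RNA-seq counts with a ratio of 0.33 (0.33 to 0.34), which turned to -0.12 with the scaling over nuclear genes.

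The tandem genes differed less among themselves. Their ratios were 0.70 for AT1G07930, 0.60 for AT1G07940 and 0.41 for AT1G07920. AT1G07930 took 16.9% of the eEF1A footprints and 13.0% of the eEF1A RNA, AT1G07940 took 19.3% of the footprints and 16.0% of the RNA, and AT1G07920 took 16.1% of the footprints and 15.2% of the RNA. All 4 genes have the same coding length, so that shares of TPM gave nearly the same values. RSEM further assigned 2 coding isoforms to AT1G07930, of which the shorter, with 1119 nucleotides, took 0.130% of its abundance in Ribo-seq and 0.723% in RNA-seq.

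**Figure D4:**
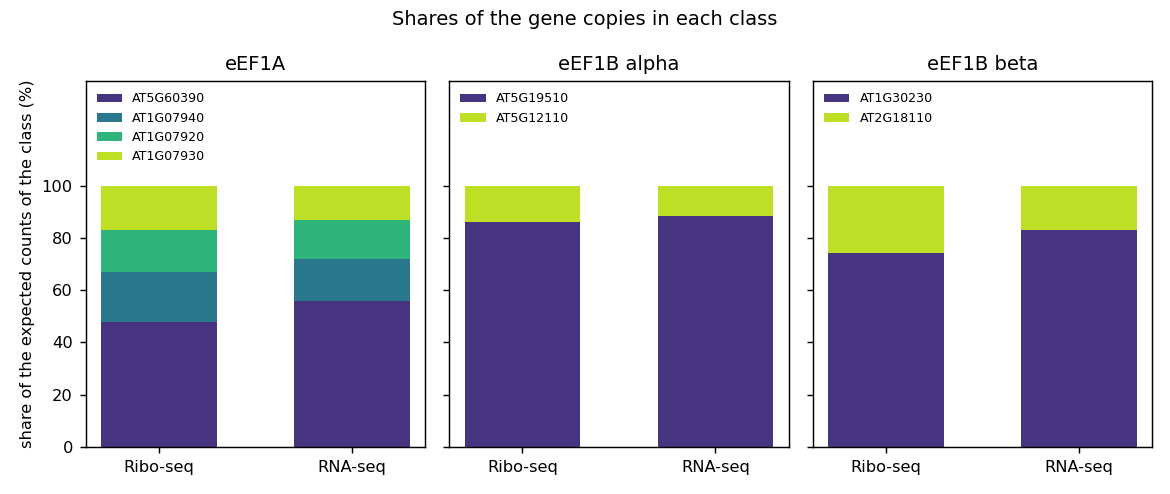
Stacked bars give the share of each gene copy in the expected counts of its class, in percent, for Ribo-seq (left) and RNA-seq (right). AT5G60390 took 47.7% of the eEF1A footprints and 55.7% of the eEF1A RNA, and AT2G18110 took 25.8% of the beta footprints and 16.8% of the beta RNA.

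eEF2, which LOS1 encodes almost alone in these tables, had 1167323 footprints and 124251 RNA-seq counts. Its ratio was 0.79 (0.78 to 0.80), or 1.73-fold, at percentile 84.8 of the nuclear genes and 0.67 above their median (0.46 to 0.70 over all settings). A relative outside the 10 members, AT3G12915, encodes a protein 91.4% identical to LOS1 over 788 aligned amino acids. This protein was read from isoform 2, since the coding length of isoform 1, 2464 nucleotides, is not a multiple of 3. AT3G12915 had 9817 footprints, 11.9 TPM, and 294 RNA-seq counts, 1.96 TPM. Its ratio of 2.54 (2.36 to 2.73) was far above that of LOS1. The genes share 38 of the 2505 windows of 28 nucleotides in LOS1, and the longest shared run has 43 bases (LOS1, chr1:20969384-20969426, minus strand, and AT3G12915, chr3:4114530-4114572, plus strand, TAIR10.1).
LOS1 and AT3G12915: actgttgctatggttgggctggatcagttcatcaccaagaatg
If LOS1 footprints were spread evenly, 17708 of them would fall into shared windows, more than all footprints assigned to AT3G12915. No window of 100 nucleotides is shared. The part of shared windows in the ratio of AT3G12915 was not tested. With both genes summed the eEF2 ratio was 0.80.

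As deposited, the alpha subunit of eEF1B had ratios in the lower part of the range of the members. For AT5G12110 this depended on the setting. It lay above the member median in CPM (0.71 against 0.69) and with whole coding lengths (0.43 against 0.41). With a pseudocount of 1 and with the scaling over nuclear genes it lay below, and AT5G19510 lay below in every setting. AT5G19510 had 152679 footprints and 19173 RNA-seq counts, a ratio of 0.24 (0.21 to 0.26), and AT5G12110 had 24627 footprints and 2572 RNA-seq counts, a ratio of 0.51 (0.44 to 0.59). AT5G19510 took 86.1% of the alpha footprints and 88.2% of the alpha RNA-seq counts. Per length it stood 6.31-fold above AT5G12110 in Ribo-seq and 7.64-fold in RNA-seq. The alpha sum had a ratio of 0.27 (0.25 to 0.30), which turned to -0.18 with the scaling over nuclear genes but stayed above the nuclear median in every setting, by 0.14 to 0.28.

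As RSEM assigned the reads, the beta subunit showed the widest difference between copies among the members. AT2G18110 had 44006 footprints and only 2248 RNA-seq counts, a ratio of 1.55 (1.48 to 1.62) at percentile 98.0 of the nuclear genes. AT1G30230 had 126580 footprints and 11122 RNA-seq counts, a ratio of 0.77 (0.73 to 0.80). AT2G18110 took 25.8% (25.6 to 26.0) of the beta footprints and 16.8% (16.2 to 17.5) of the beta RNA-seq counts, so that AT1G30230 stood above it 2.87-fold in Ribo-seq and 4.94-fold in RNA-seq. Of the 28-nucleotide windows of AT1G30230, 86 of 669 also occur in AT2G18110. With an even spread 16272 footprints of AT1G30230 would lie there, and if all of these had been assigned to AT2G18110 and were removed, its ratio would be 0.88 and no member would exceed 1. This estimate was added after the values had been seen, and it did not return the removed footprints to AT1G30230. The 0.88 can therefore not be set against the 0.77 of AT1G30230. How far the copies would differ after such a return was not computed. It is no bound, since the shared part of AT1G30230 was 12.9% with windows of 28 nucleotides and 17.2% with 24. The actual division of these footprints was not tested. The beta sum does not depend on it and had a ratio of 0.93 (0.90 to 0.96).

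The gamma gene AT1G09640 had 156738 footprints and 14739 RNA-seq counts, and its ratio was 0.96 (0.93 to 0.99). In Ribo-seq RSEM gave 18.8% of its abundance to a shorter coding isoform of 798 nucleotides, against 0% in RNA-seq, next to the main isoform of 1245. With the length of the main isoform in both assays the ratio was 0.86. AT1G57720, a second gamma gene that is not among the 10 members, encodes a protein 89.6% identical to it. AT1G57720 had 190769 footprints and 18536 RNA-seq counts, 464 TPM in Ribo-seq and 264 TPM in RNA-seq, and a ratio of 0.81 (0.78 to 0.84). The copies thus differed little, with AT1G09640 taking 45.1% of the gamma footprints and 44.3% of the gamma RNA. The sum of both had a ratio of 0.88 (0.86 to 0.90).

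The sums per subunit were also compared with each other, as these are independent of how reads were divided between copies. eEF1B contains an alpha, a beta and a gamma subunit, and in Ribo-seq their sums were close together, at 806 TPM for alpha, 752 TPM for beta and 872 TPM for gamma with AT1G57720 included. The largest was 1.16-fold above the smallest. In RNA-seq the sums were 668 TPM for alpha, 394 TPM for beta and 474 TPM for gamma, and the largest was 1.69-fold above the smallest. With whole coding lengths in place of effective ones these folds were 1.18 in Ribo-seq and 1.67 in RNA-seq, and with the main isoform length for AT1G09640 the fold was 1.12 in Ribo-seq. Without AT1G57720 the gamma level was 408 TPM in Ribo-seq, 0.507 of alpha. Summed eEF1A exceeded summed alpha 7.06-fold in Ribo-seq and 6.77-fold in RNA-seq, an order that turned with whole coding lengths, which gave 7.21-fold in Ribo-seq and 8.06-fold in RNA-seq. It exceeded eEF2 4.14-fold in Ribo-seq and 5.67-fold in RNA-seq. The comparison of subunit sums was made after the values of the single genes had been seen, and with 1 pooled value per assay it has no replicate check.

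**Figure D5:**
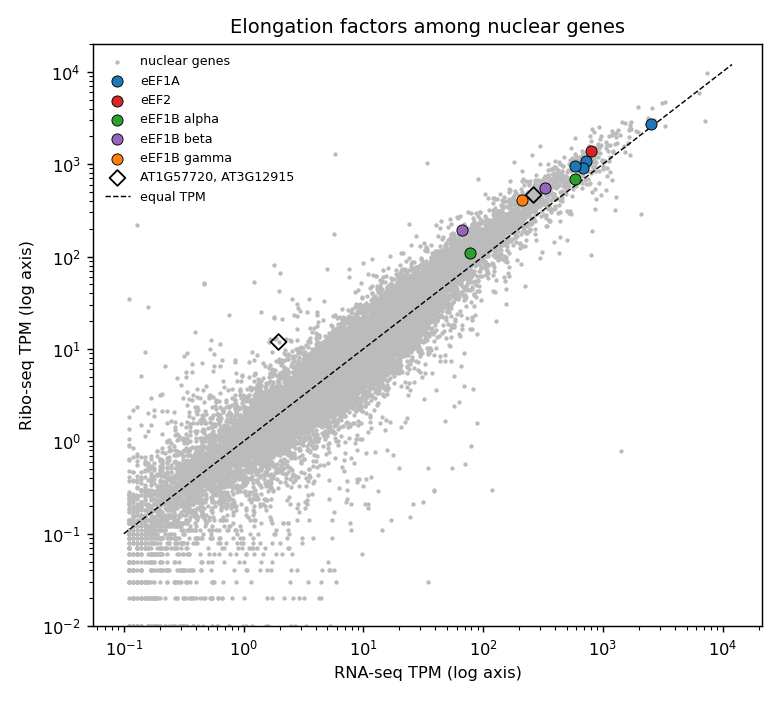
Each grey point is a nuclear gene with an RNA-seq TPM over 0.1, coloured points are the members and open diamonds AT1G57720 and AT3G12915, with Ribo-seq TPM on the vertical and RNA-seq TPM on the horizontal log axis. The 213 genes at 0 in Ribo-seq cannot be drawn on a log axis. The members lie at the abundant end, above the dashed line of equal TPM.

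Some features of sequence that played no part in the choice of the members were also read, and none of them was common to all 10. The share of G or C at the last codon position was 55.8% in AT5G60390 and 60.0% to 61.1% in the tandem genes, against a median of 42.1% over 27407 nuclear genes. It was 48.1% in LOS1, 52.5% in AT1G09640, 49.3% in AT5G19510 and 36.2% in AT5G12110, the only member below the nuclear median. The beta genes had 44.4% in AT1G30230 and 45.7% in AT2G18110. Windows from 250 bases before to 50 bases after each annotated gene start were searched on both strands for the telo-box AAACCCTAA and for the site II elements TGGGCC and TGGGCT, motifs known from promoters of plant genes for the translation apparatus. The telo-box was found in 4 of the 10 members and in 3.60% of 27443 windows, and a site II element in 7 of the 10 and in 21.7%. A match of letters does not show a bound site. The telo-box is shown with its surroundings for 3 of these genes, 5′ to 3′ along the gene, with the motif in capitals, which in AT5G19510 is on the opposite strand (TAIR10.1).
AT1G07940, chr1:2465514-2465543, minus strand: atgttatgttAAACCCTAActtattatttc
LOS1, chr1:20971777-20971806, minus strand: aagagagcgaAAACCCTAAacgagaaacaa
AT5G19510, chr5:6583226-6583255, minus strand: ttatttgggtTTAGGGTTTctcagagtctc
The motif began 54 bases before the gene start in LOS1 and within the first bases of the transcript in AT1G07940 and AT5G19510. With 1 value per gene and assay, these matches could not be related to changes in expression.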

How the data were processed

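The authors deposited 1 table per assay made with RSEM, with expected counts (not normalized), TPM and FPKM over effective lengths. The ratios and shares here rest on the first pair, and the deposited FPKM was left aside. The lengths, deposited beside them, are other values and served to check that they are coding lengths. The submitters' processing notes list STAR, RSEM 1.3.1 and Bowtie2 2.3.4.1. The genome build and the way the 6 libraries were merged are named in none of the labels or methods read here. Cycloheximide and chloramphenicol, which stall cytosolic and plastid ribosomes, were in the lysis buffer. All 16729 genes with 1 isoform had the coding length of the TAIR10.1 annotation, from which names, coordinates and sequences were taken. RSEM divides reads that match several genes by an estimate, so single copies of near-identical genes are uncertain.

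Footprints and RNA were compared as the log2 ratio of TPM (0.1 added, RNA-seq TPM over 0.1). Intervals combine exact Poisson intervals (95%) of both counts, and those of shares are exact binomial. PCR reads are not independent molecules, so all intervals cover counting error only. The interval and ratio were run on simulated Poisson counts without shared reads, PCR copies or replicate spread. That checks the calculation only. No count model was fitted, and with 1 pooled value per assay there was no test. The text names all 10 members, AT1G57720, AT3G12915, of 3 further lists the 2 genes with most RNA, and the 3 nuclear genes nearest to eEF2 in both TPM values. RBCS1A and PYK10 are markers of tissue, and AT1G35550, ABCE1 and AT5G08650 were chosen after their values had been seen. The members and lists were chosen with earlier results of these data known. Alternatives were a pseudocount of 1, CPM, whole coding lengths, scaling over nuclear genes, other window lengths and shares of TPM. Python 3.11.15, numpy 2.4.6, pandas 2.3.3, scipy 1.17.1, Biopython 1.88 and matplotlib 3.10.9 were used. Some sequence windows of these genes are not reported here.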

Additional observations from a re-analysis of the deposited data

How the results depend on the processing

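No paired analysis was possible because each table holds 1 pooled value for 6 libraries, and for the same reason leaving out replicates could not be run. With a pseudocount of 1 the 5 class ratios stayed within their counting intervals, and the median of the members was 0.65 as before. In CPM the ratios were 0.32 for eEF1A, 0.69 for eEF2, 0.48 for eEF1B alpha, 1.13 for beta and 0.87 for gamma, with a member median of 0.69. With whole coding lengths they were 0.041, 0.41, 0.20, 0.85 and 0.69 in the same order of classes, with a median of 0.41. Scaled over nuclear genes they were -0.12, 0.34, -0.18, 0.48 and 0.51, with a median of 0.20. This setting leaves plastid genes out of both tables. In it eEF1A and alpha were negative, but relative to the nuclear median of that setting they stayed above 0, by 0.20 and 0.14. Without the 4 eEF1A copies the median of the members was 0.78. Among alternatives added after seeing the data, the eEF1A ratio was 0.57 for the 3 tandem genes alone and 0.11 for AT5G60390 alone. The count of members past a fold of 2 was 0 once evenly spread shared footprints were removed, and 1 in all 4 planned settings. The share of 28-nucleotide windows found elsewhere in AT5G60390 was 26.5% with 24 and 19.3% with 30 nucleotides. Depth does not limit these genes, since the lowest count was 2248, but the missing spread between replicates and the division of shared reads do.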

Other observations

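Other factors of elongation and termination, from lists of genes with related roles, had median ratios near the 0.65 of the members. The 3 genes for eIF5A, which helps ribosomes to form difficult peptide bonds, had a median log2 ratio of 0.73, and 1 exceeded 1, as 8.44% of all nuclear genes did. FBR12 (AT1G26630) dominated them with 1560 TPM in Ribo-seq and 941 TPM in RNA-seq, a ratio of 0.73 (0.70 to 0.76). ELF5A-3 (AT1G69410), with 175 TPM in Ribo-seq and 81.6 TPM in RNA-seq, was the one over 1, with an interval of 1.01 to 1.19. Of 9 genes for termination, rescue and recycling of ribosomes, 8 had an RNA-seq TPM over 0.1, and their median was 0.74 with 1 over 1 and 0 under -1, against 8.44% and 10.1% of all nuclear genes. ABCE2 (AT4G19210), which splits terminated ribosomes, had 143 TPM in Ribo-seq and 84.4 TPM in RNA-seq, and the eRF3 gene AT1G18070, annotated by RefSeq only as of an EF1A and IF2gamma family, had 118 TPM in Ribo-seq and 71.9 TPM in RNA-seq. Their ratios were 0.76 and 0.72, and those of all 8 genes ran from -0.02 to 1.57, against 0.11 to 1.55 for the members. The gene over 1 was ABCE1 (AT3G13640), with 1316 footprints but only 72 RNA-seq counts and a ratio of 1.57.

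The nucleus also encodes elongation factors of bacterial type for plastids and mitochondria. All 9 listed genes had a ratio, with a median of 0.63, 1 over 1 and 0 under -1, against a nuclear median of 0.12 and 8.44% over 1 and 10.1% under -1 of all nuclear genes. With so few genes in each list, 1 gene over 1 is no result about the list. Among the nuclear genes with an RNA-seq TPM over 50 the median was 0.53 and 13.8% exceeded 1. That median is closer to those of the lists, although not all list genes reach that level. The plastid EF-Tu gene RABE1b (AT4G20360), the counterpart of eEF1A, which RefSeq annotates as a RAB GTPase homolog, had 918 TPM in Ribo-seq and 408 TPM in RNA-seq, a ratio of 1.17 (1.15 to 1.19), against 0.33 for the eEF1A sum. SCO1 (AT1G62750), the plastid EF-G and counterpart of eEF2, had 246 TPM in Ribo-seq and 159 TPM in RNA-seq, and its ratio of 0.63 lay near the 0.79 of LOS1. The LepA gene AT5G08650, annotated by RefSeq as a small GTP-binding protein, had the lowest ratio of the list, -0.48.

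The 3 nuclear genes nearest to LOS1 in both TPM values, apart from the genes of this family, were AT5G02960, annotated as a ribosomal protein of the S12/S23 family, AT2G10940, annotated as a lipid-transfer protein, and AT3G49910, annotated as an SH3-like translation protein. They had 1406, 1281 and 1284 TPM in Ribo-seq and 855, 784 and 822 TPM in RNA-seq, within 0.106 to 0.110 of LOS1 as a distance on log2 axes. With only 1 value per assay this likeness says nothing about how their levels vary together.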
